A study of Mus musculus with 9 samples.

Results

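Transcripts of 9 genes of the early response to T-cell receptor (TCR) stimulation were followed in thymic invariant natural killer T (iNKT) cells: the transcription factors *Egr1*, *Egr2* and *Egr3*, their corepressors *Nab1* and *Nab2*, the nuclear receptors *Nr4a1*, *Nr4a2* and *Nr4a3*, and the nuclear protein gene *Ier2*. They were chosen by name and are 9 of the 21883 genes measured. Their levels were compared in 3 groups of 3 RNA-seq libraries, all from thymus of C57BL/6 mice: WT iNKT cells at stage 2, WT iNKT cells at stage 3 (WT mice of 6 weeks), and *Med23*-deficient iNKT cells at stage 2, which carried *Med23* alleles with loxP sites and a Cre driven by the *Cd4* promoter. That Cre is active by the CD4 and CD8 double-positive (DP) thymocyte stage, so other T cells of these mice lacked *Med23* as well, and the labels give no age for this group. Stages were sorted by flow cytometry, with stage 2 cells low and stage 3 cells high for NK1.1. The methods describe the data as representative of independent experiments but do not say whether the replicate libraries were those experiments, separate mice or pools, so p-values measure the spread between these libraries, which may be technical.

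Engagement of the TCR activates ERK, calcium and NFAT pathways, and within minutes to an hour genes of the Egr and Nr4a families are transcribed without need for new protein. Egr proteins are zinc finger activators, Nab1 and Nab2 bind Egr1, Egr2 and Egr3 and restrain them, and *Nab2* is itself an Egr target. In iNKT cells Egr2 is known for turning on *Zbtb16*, which encodes the lineage factor PLZF, and Nr4a1 (Nur77) is widely used as a readout of recent TCR signal strength. Med23 is a subunit of the Mediator complex, which links transcription factors to RNA polymerase II, and is known from other cells for its contact with the ERK-regulated factor Elk1 at *Egr1*.

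Promoter windows of 250 bases before a RefSeq transcript start (GRCm38.p6, the same coordinates as mm10) were found for 6 of the 9 genes, and none was found for *Egr1*, *Egr3* and *Ier2*. Those of *Egr2* and *Nr4a1* are printed, because both genes were among the members that stood apart between WT stages. *Egr2* has 5 such windows, and the one shown is free of annotated exons and holds the most matches. The *Egr2* window is chr10:67537619-67537868 and the *Nr4a1* window chr15:101266596-101266845, both on the plus strand and free of annotated exons of the gene. Motifs searched on both strands are in capitals.
Egr2: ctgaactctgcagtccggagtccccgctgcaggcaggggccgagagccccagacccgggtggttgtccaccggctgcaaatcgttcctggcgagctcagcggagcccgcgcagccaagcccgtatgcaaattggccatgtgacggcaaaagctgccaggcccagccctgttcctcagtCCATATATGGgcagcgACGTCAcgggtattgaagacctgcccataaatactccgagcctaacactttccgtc
Nr4a1: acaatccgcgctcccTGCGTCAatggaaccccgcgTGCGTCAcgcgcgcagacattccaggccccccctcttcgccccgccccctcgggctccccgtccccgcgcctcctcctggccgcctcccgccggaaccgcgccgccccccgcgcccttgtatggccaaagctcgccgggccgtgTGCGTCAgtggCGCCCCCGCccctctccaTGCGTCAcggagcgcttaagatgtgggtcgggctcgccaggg
In the *Egr2* window the capitals mark a CArG box, the site type of serum response factor, 72 to 63 bases before the start, and then TGACGT on the other strand, a CREB-type site, from 56 to 51 bases before the start. In the *Nr4a1* window they mark 4 copies of TGCGTCA, beginning 235, 215, 71 and 42 bases before the start, and 1 EGR site (GCGGGGGCG or GCGTGGGCG) on the other strand, from 60 to 52 bases before it. No marked motif overlaps another. Of 32851 promoter windows of this length, 1.47% held a CArG box, 6.47% TGACGT, 1.75% TGCGTCA and 3.06% an EGR site. The AP-1 motif TGANTCA, held by 6.75% of windows, was not among the letters of either window. Of the windows not printed, that of *Nr4a3* held 3 copies of TGACGT, that of *Nab1* 1 copy of TGCGTCA and 3 EGR sites, and those of *Nab2* and *Nr4a2* none of the motifs searched. These are matches of letters, not measured sites.

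The sorted identity was checked first. *Klrb1c*, which encodes NK1.1, had a mean of 16.7 ± 9.30 FPKM (SD, n = 3) in WT stage 2, 75.0 ± 19.0 in WT stage 3 and 3.42 ± 1.05 in the *Med23*-deficient group. FPKM is fragments per kilobase of transcript and per unit of mapped fragments, so it is corrected for gene length. *Cd24a*, high in immature cells, was at most 0.72 FPKM in any library. *Med23* was listed at 3.60 to 4.80 FPKM in *Med23*-deficient and 5.15 to 6.74 in WT stage 2 libraries, without overlap, but the difference missed the adjusted threshold (log2 fold change -0.41, limma adjusted p = 0.552). WT stage 3 libraries, at 4.44 to 7.14 FPKM, overlapped the *Med23*-deficient ones. The gene value pools all exons and so does not check the deleted part. Summed markers of DP thymocytes were 0.95 to 4.99 FPKM, those of myeloid cells at most 1.69, and those of B, erythroid and NK cells at most 0.75, although only 2 of 5 B-cell, 3 of 6 myeloid, 1 of 4 erythroid and 1 of 2 NK genes are in the table. Read depth is unknown, and 15584 to 17333 genes were above 0 per library.

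In WT cells at both stages the corepressor genes and *Ier2* were the most abundant members and the Nr4a genes the least. By mean FPKM in WT stage 2, *Nab2*, *Nab1* and *Ier2* led with overlapping libraries, *Egr3* and *Egr1* followed apart from them but not apart from each other, then *Egr2* and *Nr4a1*, whose libraries overlapped, then *Nr4a3*, with *Nr4a2* last. In WT stage 3 the order was *Ier2* and *Nab1*, then *Nab2*, *Egr3* and *Egr1* in a chain of overlaps, then *Egr2*, *Nr4a3*, *Nr4a1* and *Nr4a2*, each overlapping the next. In *Med23*-deficient cells *Nab2* was first, overlapping *Nab1* and *Ier2*, then came *Egr3*, then *Egr1*, *Nr4a1*, *Egr2* and *Nr4a3* in a chain of overlaps, and *Nr4a2* stayed last. *Nab2* thus ranked 728 of 18766 genes above 0 in WT stage 2, 1332 of 18958 in WT stage 3 and 452 of 19027 in *Med23*-deficient cells, whereas *Egr1* ranked 1305, 2342 and 2881.

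**Figure D1:**
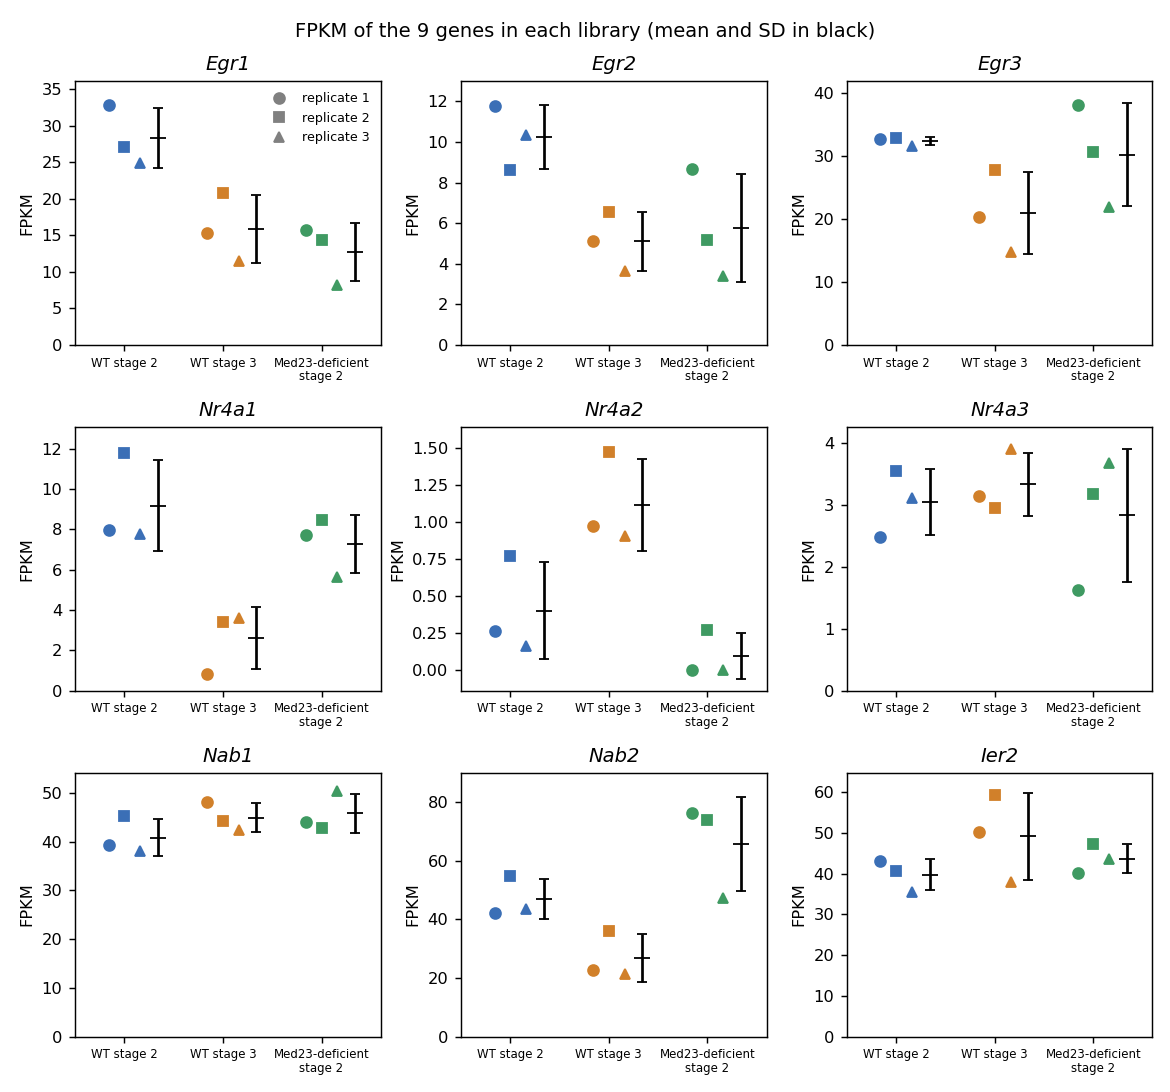
FPKM (vertical axes, linear, starting at or below 0) of the 9 genes in the libraries of the WT stage 2, WT stage 3 and *Med23*-deficient groups, with the marker shape giving the replicate and black bars the mean and SD of 3 libraries. *Nr4a1* in WT stage 3 lies at 0.84 to 3.60 FPKM, below all 6 other libraries, and *Egr1* in both other groups lies below all WT stage 2 libraries.

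Among the Egr genes, *Egr1* (ENSMUSG00000038418, chr18:34859823-34864984, plus strand, mm10) had 32.8, 27.0 and 24.9 FPKM in WT stage 2 replicates 1, 2 and 3. It had 15.4, 20.7 and 11.5 FPKM in WT stage 3, and 15.7, 14.4 and 8.27 in *Med23*-deficient libraries. All 3 WT stage 2 libraries were above the other 6, and the other groups overlapped each other. In such bulk samples, fewer cells with a transcript and less of it per cell cannot be told apart. *Egr2* (ENSMUSG00000037868, chr10:67535475-67542188, plus strand) had 11.8, 8.63 and 10.4 FPKM in WT stage 2, 5.13, 6.54 and 3.66 in WT stage 3, and 8.69, 5.19 and 3.42 in *Med23*-deficient libraries. Its WT stages were apart, and *Med23*-deficient replicate 1 reached just into the WT stage 2 range. *Egr3* (ENSMUSG00000033730, chr14:70077445-70080157, plus strand), whose product overlaps Egr2 in T-cell functions, had 32.6, 32.8 and 31.6 FPKM in WT stage 2, a narrow range, and 20.2, 27.7 and 14.8 in WT stage 3. In *Med23*-deficient cells it had 38.1, 30.5 and 21.9 FPKM, on both sides of the WT stage 2 values.

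The corepressor genes differed from each other. *Nab1* (ENSMUSG00000002881, chr1:52457294-52500679, minus strand) had 39.2, 45.2 and 38.0 FPKM in WT stage 2, 48.2, 44.2 and 42.4 in WT stage 3, and 44.1, 42.8 and 50.4 in *Med23*-deficient libraries, with all groups overlapping. *Nab2* (ENSMUSG00000025402, chr10:127660918-127668568, minus strand) had 42.2, 54.7 and 43.6 FPKM in WT stage 2, 22.7, 36.1 and 21.5 in WT stage 3, and 76.1, 73.7 and 47.2 in *Med23*-deficient libraries. WT stage 3 was below both stage 2 groups, and only *Med23*-deficient replicate 3 lay within the WT stage 2 range. *Nab2* shares 40 bases with the opposite-strand gene *Stat6*, 1668 with *Nemp1* and 1646 with the antisense gene *Gm16229*, and whether counting used strand is not given in the sources used here. *Stat6* stood the other way between WT stages (31.4, 32.0 and 36.1 FPKM at stage 2, 46.1, 41.2 and 45.5 at stage 3). *Nemp1* did not exceed 1.85 FPKM in any library. *Gm16229* had 0, 0.11 and 0.09 FPKM in WT stage 2, and 0, 0.12 and 0.94 in WT stage 3. In *Med23*-deficient libraries *Gm16229* had 1.75, 1.17 and 0.28 FPKM, above WT stage 2 without overlap. Its part in the *Nab2* values was not tested.

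Of the nuclear receptor genes, *Nr4a1* (ENSMUSG00000023034, chr15:101266846-101274792, plus strand) had 7.95, 11.8 and 7.79 FPKM in WT stage 2, 0.84, 3.40 and 3.60 in WT stage 3, and 7.70, 8.45 and 5.66 in *Med23*-deficient libraries. Both stage 2 groups were above every stage 3 library and overlapped each other. *Nr4a2* (ENSMUSG00000026826, chr2:57106830-57124003, minus strand) was near the floor of the table, with 0.26, 0.77 and 0.16 FPKM in WT stage 2 and 0.97, 1.47 and 0.90 in WT stage 3, and in *Med23*-deficient cells it was listed at 0 in replicates 1 and 3 and at 0.27 in replicate 2. *Nr4a3* (ENSMUSG00000028341, chr4:48045153-48086447, plus strand) had 2.48, 3.54 and 3.11 FPKM in WT stage 2, 3.14, 2.94 and 3.90 in WT stage 3, and 1.62, 3.18 and 3.68 in *Med23*-deficient libraries, with all groups overlapping. The 3 family members therefore showed 3 different patterns over the same libraries. *Ier2* (ENSMUSG00000053560, chr8:84661331-84662852, minus strand), an intronless type of immediate early gene, had 43.0, 40.7 and 35.6 FPKM in WT stage 2, 50.3, 59.3 and 38.0 in WT stage 3, and 40.0, 47.2 and 43.6 in *Med23*-deficient libraries, again overlapping throughout. Within groups the members tended to share a low library: replicate 3 was the lowest for 6 of 9 members in WT stage 2, 7 in WT stage 3 and 5 in *Med23*-deficient cells. The share of all genes lowest in replicate 3 was not computed. That library also had the most genes above 0 in each group (16670, 17151 and 17333).

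To ask how the genes differ between stages in WT cells, WT stage 3 was compared with WT stage 2 on the log2(FPKM + 1) scale, which understates changes of low genes. *Egr1*, *Egr2*, *Egr3*, *Nab2* and *Nr4a1* were lower and *Nr4a2* higher at stage 3 without overlap of the libraries, while *Nr4a3*, *Nab1* and *Ier2* overlapped. Thus 5 of 9 members were lower and 1 higher without overlap, against 10.4% and 7.36% of the 20689 genes tested. Such shares cover genes of all levels, and those without overlap were not computed for genes of like level. The median member difference was -0.65, against -0.01 over all genes tested. The log2 fold change of *Nr4a1* was -1.59 ± 0.40 (SE; mean 9.18 ± 2.27 FPKM at stage 2 and 2.61 ± 1.54 at stage 3, SD, 3 libraries a group; limma adjusted p = 0.148). It was the 1 member past the thresholds of a fold of 2 and an unadjusted p of 0.05, which 1.90% of genes passed as lower and 1.70% as higher. *Egr2* followed at -0.90 ± 0.22 (SE; adjusted p = 0.137), *Egr1* at -0.82 ± 0.22 (0.174), *Nab2* at -0.81 ± 0.22 (0.170) and *Egr3* at -0.65 ± 0.22 (0.264). *Nr4a2* had a difference of 0.61 ± 0.23 at a level near 1 FPKM (adjusted p = 0.326).

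No member reached an adjusted p of 0.05 in limma, as 0.759% of genes did as higher and 0.914% as lower, nor did any in a Ballgown-style linear model. At an unadjusted p of 0.05, 6 members passed, 5 as lower and 1 as higher, against 7.79% and 5.44% of genes. *Nr4a3*, *Nab1* and *Ier2* had log2 differences of 0.10 ± 0.21, 0.14 ± 0.10 and 0.28 ± 0.18 (SE), with adjusted p of 0.854, 0.663 and 0.581. WT stage 3 replicate 2 held the highest stage 3 value of 6 members, among them all 3 Egr genes and *Nab2*. Without it 4 members passed the fold and p thresholds, *Egr1* at -1.03, *Egr2* at -1.07 and *Nab2* at -1.04 joining *Nr4a1*. When WT stage 2 replicate 2 was left out, *Egr2* (-1.01) joined *Nr4a1*. *Nr4a1* passed with each of the 6 libraries left out in turn, between -1.82 and -1.16, but in the Ballgown-style model no member passed.

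**Figure D2:**
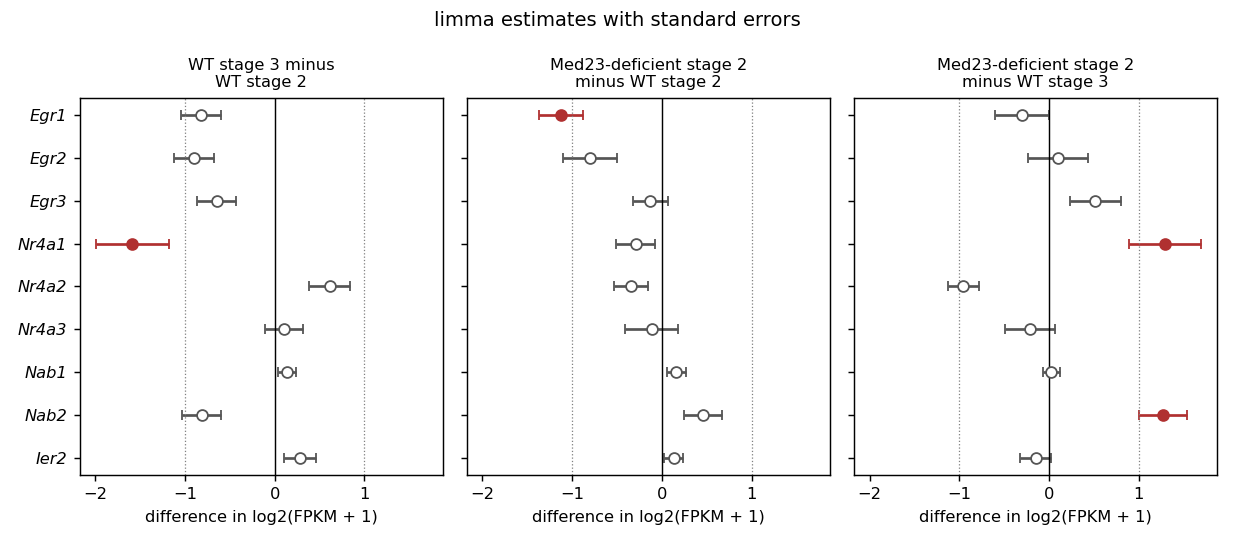
Difference in log2(FPKM + 1) (horizontal axes) of the 9 genes in 3 comparisons, as limma estimates with standard errors from 3 libraries a group; filled red points are past a fold of 2 (dotted lines) and an unadjusted p of 0.05. The panels share groups: *Nr4a1* is at -1.59 in the first and 1.29 in the third, and *Egr1* at -1.12 in the second.

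*Med23*-deficient stage 2 cells were compared with WT stage 2 cells to ask how the genes differ with genotype at the same sorted stage. The sources used here do not say whether libraries of both genotypes were made or sequenced together. A batch difference therefore cannot be told apart from genotype. The libraries also differed in *Klrb1c* without overlap (2.61 to 4.60 FPKM against 7.65 to 26.2 in WT), whose part in these results was not tested. *Egr1* was the member that stood apart, with a log2 fold change of -1.12 ± 0.25 (SE; mean 28.2 ± 4.11 FPKM in WT and 12.8 ± 3.95 in *Med23*-deficient cells, SD, 3 libraries a group; limma adjusted p = 0.199). It was the 1 member past fold and p, against 1.32% of the 20674 genes as lower and 0.798% as higher, and the 1 member without overlap, against 8.37% of genes as lower and 5.63% as higher. In 5 of 6 fits with a library left out it stayed past both thresholds, and without *Med23*-deficient replicate 3, its lowest library, the value was -0.86 and missed the fold. *Egr2* had -0.80 ± 0.31 (adjusted p = 0.478), with *Med23*-deficient replicate 1 inside the WT range. Without that replicate *Egr2* was at -1.10 and past fold and p. *Egr3*, at 32.3 ± 0.66 and 30.2 ± 8.11 FPKM, had -0.13 ± 0.20 (adjusted p = 0.824).

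*Nab2* had a difference of 0.46 ± 0.21 (SE) on the log2 scale in *Med23*-deficient cells, with means of 46.9 ± 6.86 and 65.7 ± 16.1 FPKM (SD, n = 3) and an adjusted p of 0.565 in limma. *Nr4a1* had -0.29 ± 0.22, *Nr4a2* -0.34 ± 0.19, *Nr4a3* -0.11 ± 0.30, *Nab1* 0.16 ± 0.11 and *Ier2* 0.13 ± 0.11, with adjusted p of 0.648 to 0.909 and overlapping libraries in each. The median over the 9 members was -0.13, against -0.01 over all genes tested. No member reached an adjusted p of 0.05 in limma or in the Ballgown-style model, as 0.0677% of genes did as higher and 0.145% as lower in limma. At an unadjusted p of 0.05, *Egr1* and *Egr2* passed as lower and none as higher, against 6.02% and 3.56% of genes.

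*Med23*-deficient stage 2 cells were also set against WT stage 3 cells, a comparison in which genotype and stage both differ and cannot be told apart, and which shares libraries with the comparisons above. *Nab2* was higher in *Med23*-deficient cells by 1.27 ± 0.27 (SE) on the log2 scale, with means of 26.8 ± 8.08 FPKM in WT stage 3 and 65.7 ± 16.1 in *Med23*-deficient cells (adjusted p of 0.124 in limma), and passed fold and p in all 6 fits with a library left out. Over 16 alternatives its adjusted p was between 0.0494, with genes of a mean FPKM of at least 1, and 0.385. *Nr4a1* was higher by 1.29 ± 0.40 (adjusted p = 0.303), but missed the thresholds without *Med23*-deficient replicate 1 (1.25) or 2 (1.19) or WT stage 3 replicate 1 (0.86). *Nr4a2* was lower, with -0.95 ± 0.18 (adjusted p = 0.0842), just short of a fold of 2 on this scale, but its value depends on the pseudocount, being -2.94 with 0.1 and -5.17 with 0.01, both past fold and p. It passed fold and p in 3 of the 6 fits with a library left out, reaching -1.07. Thus *Nab2* and *Nr4a1* were past fold and p as higher, against 1.39% of 20846 genes, and none as lower, against 1.48%, while 2 were higher and 1 lower without overlap, against 7.48% and 6.75%.

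At an unadjusted p of 0.05 the same 3 genes passed, against 5.32% of genes as higher and 4.89% as lower, and no member reached an adjusted p of 0.05 in limma or the Ballgown-style model, against 0.705% and 0.628% of genes in limma. *Egr1* (-0.30 ± 0.30), *Egr2* (0.10 ± 0.34), *Egr3* (0.52 ± 0.28), *Nr4a3* (-0.21 ± 0.28), *Nab1* (0.03 ± 0.10) and *Ier2* (-0.15 ± 0.17) overlapped between these groups. *Egr1* and *Egr2* libraries of the *Med23*-deficient group thus overlapped those of WT stage 3, although replicate 3 was below the lowest WT stage 3 value for both genes and replicate 1 above the highest for *Egr2*. *Nr4a1* libraries overlapped those of WT stage 2, with replicates 1 and 3 below the lowest WT value.

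Because scaling of a library cancels in a ratio of 2 genes within it, ratios were computed for the 28 pairs among the 8 members without *Nr4a2*. Of these pairs, 18 were without overlap between WT stages and 10 between genotypes at stage 2. Between *Med23*-deficient and WT stage 3 cells 14 were. The pairs named were chosen after their values were seen. *Egr1* per *Nab2* was 0.778, 0.494 and 0.570 in WT stage 2, 0.676, 0.575 and 0.533 in WT stage 3, and 0.206, 0.195 and 0.175 in *Med23*-deficient libraries. The WT stages overlapped, with means of 0.614 ± 0.147 and 0.595 ± 0.073 (SD, n = 3 each), and the *Med23*-deficient mean of 0.192 ± 0.016 lay below both without overlap. *Egr1* per *Egr3* was 1.01, 0.825 and 0.788 in WT stage 2, 0.759, 0.747 and 0.773 in WT stage 3, and 0.412, 0.470 and 0.378 in *Med23*-deficient libraries, so that the latter stood a log2 difference of -1.05 below WT stage 2. *Egr1* per *Egr2* overlapped between *Med23*-deficient (1.80, 2.77 and 2.42) and WT stage 2 cells (2.79, 3.13 and 2.40).

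*Egr2* per *Nab2* was likewise lower in *Med23*-deficient cells, with means of 0.225 ± 0.062 in WT stage 2, 0.193 ± 0.029 in WT stage 3 and 0.086 ± 0.025 in *Med23*-deficient cells. *Nr4a1* per *Nr4a3* was 3.21, 3.33 and 2.51 in WT stage 2, 0.268, 1.16 and 0.923 in WT stage 3, and 4.75, 2.66 and 1.54 in *Med23*-deficient libraries. Only WT stage 3 was apart from the others in this ratio. In an exact 2-sided permutation test 3 libraries against 3 cannot give a p below 0.1, which pairs without overlap reached, and adjusted over the 28 pairs their p was 0.16 between WT stages, 0.28 between genotypes at stage 2 and 0.2 between *Med23*-deficient and WT stage 3 cells.

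**Figure D3:**
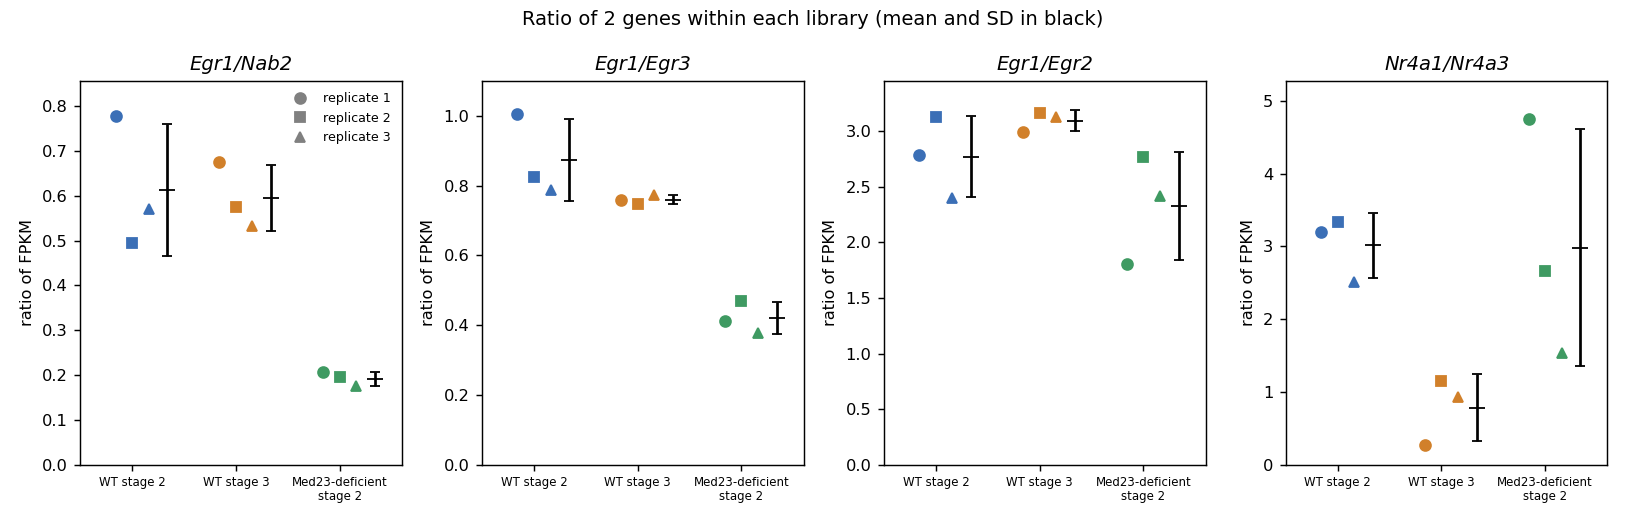
Ratio of the FPKM of 2 genes within each library (vertical axes, from 0) for 4 pairs, with the marker shape giving the replicate and black bars the mean and SD of 3 libraries. *Med23*-deficient libraries lie at 0.175 to 0.206 for *Egr1* per *Nab2*, below all 6 WT libraries, while for *Egr1* per *Egr2* the stage 2 groups overlap.

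Most of the other genes listed as immediate early had higher values at WT stage 3, where the Egr genes had lower ones. Whether each listed gene is induced early in these cells was not tested. Of 35 listed, 31 were above 0 in log2 fold change at stage 3, with a median of 0.44 against -0.01 over all genes, and 12 were higher and 2 lower without overlap, against 7.36% and 10.4% of all genes. *Rgs1*, a regulator of G protein signalling, had 3.50 ± 0.41 FPKM (SD) at stage 2 and rose to 15.1 ± 3.02 at stage 3 (log2 fold change 1.82 ± 0.18, SE; limma adjusted p = 0.0163), and the AP-1 gene *Jund* rose from 105 ± 3.94 to 168 ± 4.28 FPKM (0.67 ± 0.07; adjusted p = 0.0201). When libraries were left out singly, adjusted p was 0.0410 to 0.0843 for *Rgs1* and 0.0619 to 0.0889 for *Jund*. *Rgs1*, *Rgs2* and *Cd69*, an early activation receptor, were past fold and p as higher and none as lower, against 1.70% and 1.90% of genes. *Rgs2* had 21.4 ± 5.66 and 43.0 ± 1.82 FPKM (adjusted p = 0.0841) and *Cd69* 3.27 ± 1.49 and 11.0 ± 4.33 (adjusted p = 0.135). The count of 3 became 7 when WT stage 3 replicate 1 was left out and 5 when WT stage 2 replicate 2 was. Summed over the list, WT stage 2 libraries held 945 to 1276 FPKM and WT stage 3 libraries 1324 to 1785, while 12 heat shock genes summed to 1268 to 1427 and 1037 to 1122. The heat shock sums were largely *Hsp90ab1*, at 823 ± 31.5 FPKM (SD) at stage 2 and 573 ± 48.9 at stage 3. By gene, 6 of the 12 were above 0 at stage 3 and 6 below, with a median of -0.02 against -0.01 over all genes. Without overlap 0 were higher and 3 lower, against 7.36% and 10.4% of genes. None of the heat shock genes passed fold and p, and their part in these results was not tested.

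Between *Med23*-deficient and WT stage 2 cells, none of the 35 immediate early genes passed fold and p or an adjusted p of 0.05 in limma, and 4 passed an unadjusted p of 0.05 as higher and 1 as lower, against 3.56% and 6.02% of genes. The count past fold and p was 1 without *Med23*-deficient replicate 1 and 2 without WT stage 2 replicate 2. The list median was 0.13. *Fos*, another gene served by ERK and serum response factor, had 9.39, 15.6 and 11.5 FPKM in WT stage 2 and 3.81, 20.9 and 8.24 in *Med23*-deficient libraries, a wide overlap. *Egr4*, the remaining Egr gene, was near the floor of the table, at 0.08 ± 0.14 FPKM in WT and 0.59 ± 0.43 in *Med23*-deficient cells (SD, 3 libraries a group), apart but with an adjusted p of 0.486. The list summed to 1031 to 1436 FPKM in *Med23*-deficient libraries, and heat shock genes to 857 to 1037, below WT stage 2. Of the 12 heat shock genes, 6 were lower and 0 higher without overlap, against 8.37% and 5.63% of genes. At an unadjusted p of 0.05 in limma, 6 were lower and 0 higher, against 6.02% and 3.56%. Against WT stage 3, *Rgs1* and *Tnfaip3* were past fold and p as lower, against 1.48% of genes. There 28 of 35 were below 0, with a median of -0.33 against 0.003 over all genes. Without overlap 3 were higher and 8 lower, against 7.48% and 6.75% of genes. *Rgs2* fell (log2 fold change -0.95 ± 0.12; adjusted p = 0.0273), as 0.628% of genes did at an adjusted p of 0.05. When libraries were left out singly, the adjusted p of *Rgs2* was 0.0506 to 0.123.

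Genes upstream of the members gave no call. Of 19 ERK cascade, ternary complex, serum response, CREB, MEF2 and NFAT factors, none passed fold and p or an adjusted p of 0.05 in limma in any of the 3 comparisons. At an unadjusted p of 0.05, 1 passed as higher between WT stages (*Nfatc2*, log2 difference 0.50 ± 0.09, SE; adjusted p = 0.0611), against 5.44% of genes. At that threshold 1 passed as higher and 2 as lower between genotypes at stage 2, against 3.56% and 6.02% of genes, and 1 as lower between *Med23*-deficient and WT stage 3 cells, against 4.89%. *Nfatc1*, which is calcium-regulated, had -0.43 ± 0.12 between genotypes at stage 2 (adjusted p = 0.292). The 13 subunits of NuRD, the remodelling complex that Nab proteins recruit through Chd4, also gave none by either rule. Their median was -0.20 in both stage 3 against stage 2 WT cells and *Med23*-deficient against WT stage 2 cells, and in the latter 7 of 13 were lower and 1 higher without overlap, against 8.37% and 5.63% of all genes, among them *Hdac1* (-0.44 ± 0.10; adjusted p = 0.214) and *Mta2* (-0.45 ± 0.11; adjusted p = 0.238). At an unadjusted p of 0.05, 1 was higher and 5 lower there, against 3.56% and 6.02% of genes, 1 and 3 between WT stages (5.44% and 7.79% of genes), and 1 and 2 between *Med23*-deficient and WT stage 3 cells (5.32% and 4.89%).

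Of 19 genes known as targets of Egr or Nr4a factors or as set by them, 18 were tested between WT stages. At an adjusted p of 0.05 in limma 2 of them rose and 4 fell, against 0.759% and 0.914% of genes. *Zbtb16* fell from 101 ± 12.3 to 27.5 ± 5.41 FPKM (log2 fold change -1.85 ± 0.17, SE; adjusted p = 0.0122), *Id3*, an inhibitor of E proteins, fell by 3.05 (adjusted p = 0.0188), and the TCR signal dampeners *Cd5* (-1.10 ± 0.16; 0.0420) and *Dgkz* (-0.53 ± 0.07; 0.0279) fell. The interleukin receptor chain gene *Il2rb* rose by 1.36 ± 0.14 (adjusted p = 0.0171) and the death ligand gene *Fasl* by 1.93 ± 0.28 (0.0399). By fold and p, 4 were higher (*Il2rb*, *Fasl*, *Tbx21* and *Bcl2l11*) and 6 lower (*Zbtb16*, *Id3*, *Cd5*, *Pdcd1*, *Tox* and *Tox2*), against 1.70% and 1.90% of genes. *Tox2* was listed at 0 in all 3 stage 3 libraries. The list thus moved in both directions, with a median of -0.32 against -0.01 over all genes tested. When libraries were left out singly, 4 of 6 fits kept the adjusted call of *Zbtb16*, 1 of 6 those of *Id3*, *Cd5*, *Il2rb* and *Fasl*, and 0 of 6 that of *Dgkz*, with adjusted p no higher than 0.140.

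In *Med23*-deficient against WT stage 2 cells, *Pdcd1*, which encodes the inhibitory receptor PD-1, fell from 31.6 ± 1.56 to 15.5 ± 1.39 FPKM (log2 fold change -0.99 ± 0.10, SE; limma adjusted p = 0.0367), just short of a fold of 2 on this scale. It was the 1 gene of the list at an adjusted p of 0.05, against 0.145% of genes as lower and 0.0677% as higher. That call was lost in all 6 fits with a library left out, each of which has fewer samples (adjusted p = 0.0993 to 0.136), and in 6 of 10 other alternatives. The values of *Pdcd1* were 31.4, 30.2 and 33.3 FPKM in WT and 16.3, 13.9 and 16.2 in *Med23*-deficient libraries. *Tox2* was past fold and p as higher and no listed gene as lower, against 0.798% and 1.32% of genes. It had 1.19, 0.75 and 3.87 FPKM in WT and 12.1, 6.25 and 2.84 in *Med23*-deficient libraries, which overlapped (adjusted p = 0.509). *Zbtb16* had 112, 88.0 and 103 FPKM in WT and 90.9, 75.3 and 68.1 in *Med23*-deficient stage 2 libraries, overlapping, with a difference of -0.37 ± 0.14 (adjusted p = 0.483). *Id3* had -0.64 ± 0.30 (adjusted p = 0.564). Against WT stage 3, 3 of the 19 genes rose, *Zbtb16*, *Cd5* and *Id3*, and 1, *Il2rb*, fell at an adjusted p of 0.05, against 0.705% and 0.628% of genes. These calls were kept in 2, 1, 0 and 0 of 6 fits with a library left out.

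**Figure D4:**
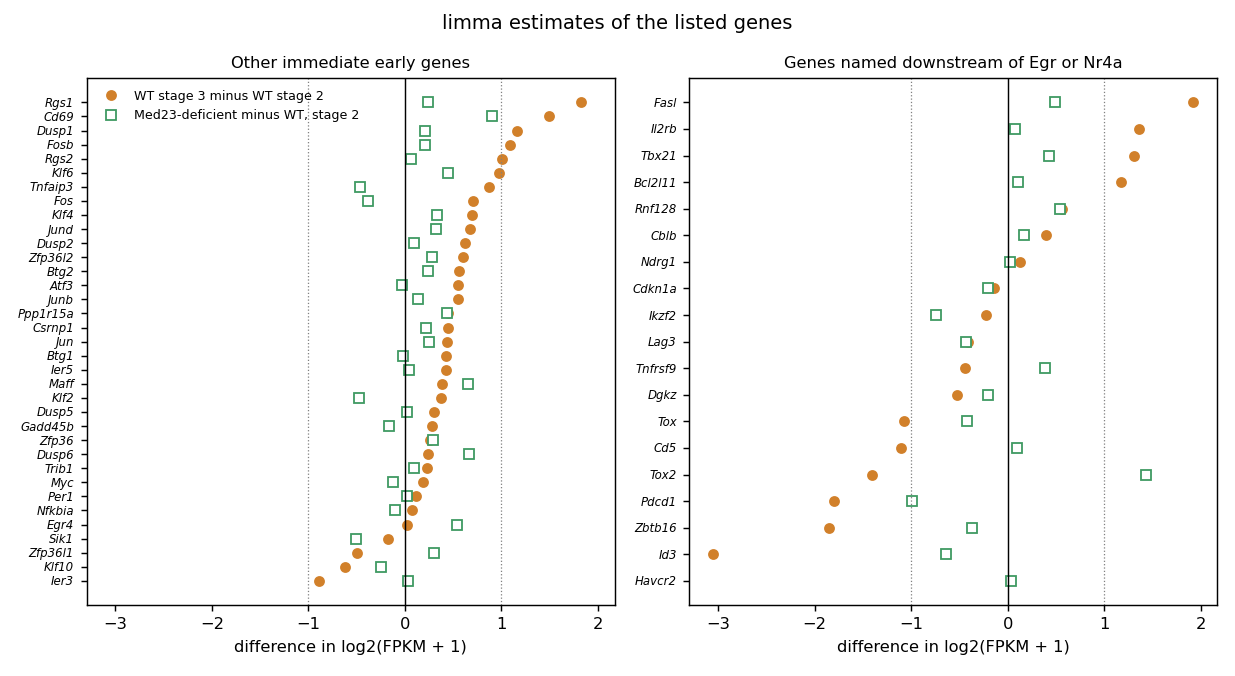
Difference in log2(FPKM + 1) (horizontal axes) of 35 other immediate early genes (left) and 19 genes known downstream of Egr or Nr4a factors (right), ordered by the WT stage comparison; circles are WT stage 3 minus WT stage 2, squares *Med23*-deficient minus WT at stage 2, and dotted lines mark a fold of 2. Of the genes listed as immediate early 31 have a circle right of 0, while the downstream genes lie on both sides. Both symbols of a gene use the same WT stage 2 libraries.

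The genes most like *Egr1*, *Egr2* and *Nr4a1* were found by Pearson's r of log2(FPKM + 1) over the 9 libraries, among 9647 genes. For *Egr1* they were *Hist1h2bq* (r = 0.948), *Nefh* (0.946), *Pabpc1* (0.946), *H2afx* (0.946) and *Cbfb* (0.943). For *Egr2* they were *Aldh18a1* (0.971), *Slc7a5* (0.967), *Hist1h2af* (0.948), *Ran* (0.948) and *Tex264* (0.944), and for *Nr4a1* they were *Fbxl19* (0.973), *Xdh* (0.965), *Poli* (0.954), *Gstp3* (0.954) and *Snrpd1* (0.948). No gene was on more than 1 of the lists. These values describe libraries that share groups and processing, and the reads of near-identical histone gene copies may have been split between them.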

How the data were processed

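RNA of sorted thymic iNKT cells was sequenced in 9 libraries, 3 a group. Per the methods and the labels, the authors used the SMARTer stranded kit for low RNA inputs, Trimmomatic 0.36, HISAT2 on mm10 with reads hitting at most 2 loci, and StringTie with GENCODE vM12. They deposited FPKM per gene and library, with no counts, so read depth stays unknown and counting intervals were not computed. Here log2(FPKM + 1) was tested with limma 3.58.1 (R 4.3.3, eBayes with trend, Benjamini-Hochberg adjustment) on the 6 libraries of each comparison, over genes above 0 in at least 1 of them. The scripts were tested on simulated data with noise independent between libraries. In each comparison 200 genes with a mean log2(FPKM + 1) above 1 were changed by 2 on the log2 scale. Fold and p recovered 94.5% to 97% of them, and an adjusted p of 0.05 recovered 65% to 73.5%. Unchanged genes made up 8.97% to 10.3% of the adjusted calls there. Member differences in the main fits were smaller than 2, and recovery of changes of their size was not simulated. The study's thresholds were a fold of 2 and an unadjusted p of 0.05. Alternatives changed the pseudocount (0.1, 0.01), filter, scaling, model, block and libraries. Named genes are the members, listed genes past fold and p, the 5 genes with the highest r for *Egr1*, *Egr2* and *Nr4a1*, and checks of genotype and stage; *Jund*, *Dgkz*, *Fos*, *Egr4*, *Nfatc1*, *Nfatc2*, *Hdac1*, *Mta2*, *Stat6*, *Nemp1* and *Gm16229*, and genes named only against WT stage 3, were added after their values were seen. Members and lists were chosen with earlier results of these data known, so no list is independent evidence. Promoters are from RefSeq. Python 3.11.15, pandas 2.3.3, scipy 1.17.1 and matplotlib 3.10.9 served for summaries and figures.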

Additional observations from a re-analysis of the deposited data

How the results depend on the processing

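Library depth is unknown, and with 3 libraries a group an exact test cannot go below 0.1. With a pseudocount of 0.1 or 0.01, 2 members instead of 1 passed fold and p between WT stages (*Egr2* joining *Nr4a1*), *Nr4a2* joined *Nab2* and *Nr4a1* between *Med23*-deficient and WT stage 3 cells, and the other immediate early genes past both numbered 5 and 6 instead of 3 there, 1 and 2 instead of 0 between genotypes at stage 2, and 4 and 4 instead of 2 between *Med23*-deficient and WT stage 3 cells. Over all genes the counts past fold and p then went from 745 to 1423 and 1452, from 437 to 971 and 974, and from 597 to 1221 and 1211. In the Ballgown-style model 0 members passed between WT stages, and 1 member and 1 immediate early gene between *Med23*-deficient and WT stage 3 cells. With genes of a mean FPKM of at least 1, 1 member (*Nab2*) had an adjusted p of at most 0.05 in the last comparison. Between WT stages 698 of 11781 such genes passed fold and p, against 745 of the 20689 of all levels. At an adjusted p of 0.05 in limma these numbers were 496 and 346. Leaving out 1 library at a time gave 1 to 4 members and 2 to 7 immediate early genes between WT stages, 0 to 2 and 0 to 2 between genotypes at stage 2, and 1 to 3 and 1 to 4 between *Med23*-deficient and WT stage 3 cells, and 0 members at an adjusted p of 0.05 in each.

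Some small log2 differences changed sign. With a library left out, *Nr4a3* ranged from -0.0040 to 0.19 between WT stages, from -0.28 to 0.14 between genotypes at stage 2 (0.10 in the Ballgown-style model) and from -0.38 to 0.038 against WT stage 3. *Egr3* ranged from -0.31 to 0.074 between genotypes at stage 2, and against WT stage 3 *Egr2* ranged from -0.20 to 0.37 and *Nab1* from -0.044 to 0.077, with -0.0020 for *Nab1* on the TPM scale. The cause was not tested. Rescaling to TPM moved the median of all genes by -0.11 between genotypes at stage 2, and the share of calls that were higher from 37.8% to 28.6%, or to 51.8% in the Ballgown-style model. *Egr1* stayed past fold and p there under all 10 alternatives other than leaving out a library, from -1.53 to -1.02.

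Whether the replicate numbers pair the libraries is not given in the sources used here. Same-numbered libraries (replicates 1, 2 and 3) deviated together with r of 0.085, 0.031 and 0.161 between WT stages. The r values were 0.035, 0.004 and 0.144 between genotypes at stage 2, and 0.047, 0.042 and 0.272 against WT stage 3. All were above 0, but not every library correlated best with its own number. Replicate 3 had the highest same-number r in each comparison, and its r with other numbers was -0.175 to -0.038. What same-numbered libraries share was not tested. With the replicate block 1, 1 and 2 members passed fold and p and 0 an adjusted p of 0.05, as without it, and immediate early genes past fold and p numbered 4, 0 and 3. At an unadjusted p of 0.05, *Nr4a2* (0.0259, lower) and *Nab2* (0.0437, higher) joined *Egr1* and *Egr2* between genotypes at stage 2 under the block in limma, with adjusted p of 0.449 and 0.516, and *Egr3* (0.0345, higher; adjusted 0.430) passed between *Med23*-deficient and WT stage 3 cells. Over all genes, calls at an adjusted p of 0.05 went from 346, 44 and 278 to 19, 0 and 42, and none of the adjusted calls named for the listed genes remained under the block (0.195 for *Pdcd1*) or in the Ballgown-style model.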
